A study of Caenorhabditis elegans with 4 samples.

Results

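The peaks of LIN-35 on the X chromosome of Caenorhabditis elegans are the 732 regions of the combined peak list that are assigned to X, of 5374 regions in all. They were chosen by chromosome alone, with no use of their strength. The remaining 4642 peaks lie on the 5 autosomes. The X was also represented by 505 of 3804 peaks in the list of replicate 1 and by 41 of 558 in the list of replicate 2.

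LIN-35 is the worm's retinoblastoma-like pocket protein. It is a subunit of the DREAM complex, which binds gene promoters and holds many cell-cycle and germline genes at low expression in the wrong tissue or at the wrong time. In the germline of hermaphrodites the X chromosomes carry repressive chromatin and most of their genes are silent until late in oocyte development, while the autosomes hold most genes that germ cells use. A peak in chromatin immunoprecipitation with sequencing (ChIP-seq) is a stretch where more DNA was recovered with the protein than expected from a control.

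All samples came from strain YL468, which carries the unc-119(ed3) mutation on chromosome III and the transgene vrIs93. In vrIs93 the mex-5 promoter, described in the labels as germline-specific, drives LIN-35 tagged with GFP and FLAG, and a wild-type copy of unc-119 marks the insertion; the labels record an outcross number of 0 and list no mutation of the native lin-35 gene. Hermaphrodites were grown at 20 degrees Celsius to young adulthood and crosslinked with formaldehyde at 2%, and whole worms were lysed, so chromatin of every tissue entered the extract. The 2 ChIP samples, precipitated through GFP, are compared here as peak lists, and the 2 inputs of the same strain were not analysed here. The labels do not say whether the replicates were separate cultures, and read depth is unknown.

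The X peaks were generally short and weak, with a small group of very strong ones. In the combined list their width had a median of 114 bp with quartiles of 40.8 and 188 bp, against a median of 159 bp and quartiles of 62 and 278 bp on the autosomes. The narrowest X peak spanned 2 bp and the widest 2475 bp. Together the X peaks covered 110 kb, or 0.626% of the 17.6 Mb of X, against 1.18% of the autosomes. Their density was 41.6 peaks per Mb on X and 56.3 per Mb on the pooled autosomes. Chromosome I was sparser than X, at 38.6 peaks per Mb, and chromosomes II to V had 48.3 to 75.3. The median X peak had a q-value, the false discovery estimate that the authors' peak caller attached to each region, of 0.00327, against 0.00173 for the median autosomal peak.

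The strongest X peaks stood far above the others. In the combined list 16 X peaks had q below 1e-20, only 9 more fell between this value and 1e-10, and the next 40 lay between 1e-10 and 1e-05. The corresponding numbers on the autosomes were 86, 225 and 609, so the step after the first group was steeper on X. As a share of their chromosome class, 1.37% of X peaks and 0.668% of autosomal peaks had q below 1e-30, whereas 3.42% of X peaks and 6.70% of autosomal peaks had q below 1e-10. In replicate 1, 13 X peaks (2.57%) and 39 autosomal peaks (1.18%) reached q below 1e-20. Replicate 2 had no X peak below 1e-10 among only 41, against 21 of 517 autosomal peaks (4.06%). These counts are a description and were not tested.

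The best X peak lay at 14525364 to 14526344 on X and spanned 981 bp. Its q was 6.31e-58 in the combined list, 1.29e-48 in replicate 1 and 6.51e-10 in replicate 2, and it was the best X peak of all 3 lists. It stood 82.5% of the way along the chromosome, and the nearest other peak was 2516 bp away. The second, at 16929506 to 16931980, was the widest X peak at 2475 bp. Inside it replicate 1 had 3 separate peaks, the best of which ranked 65 in that list, and replicate 2 had 2; the whole region ranked 13 in the combined list. The other 11 of the 12 best X peaks each matched a single peak in each replicate. The next in width were the region at 6742835 to 6744312 (1478 bp, q = 4.41e-13), in which replicate 1 had 2 peaks and replicate 2 had 1, and that at 4208576 to 4209638.

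The peak at 11093775 to 11094409 ranked 14 over all chromosomes in the combined list, 9 in replicate 1 and 66 in replicate 2. The lists differ in length, so a rank number places a peak within its own list and does not compare lists. At 6296093 to 6296850 the ranks were 15, 10 and 61, and at 2996481 to 2997398 they were 16, 11 and 78, in the same order of lists. The region at 8036072 to 8036925 ranked 21, 13 and 63, and a weaker combined peak began 438 bp away from it. The region at 11937026 to 11937850 ranked 25, 17 and 50, which was the second-best X rank of replicate 2. At 4208576 to 4209638, a region of 1063 bp, the ranks were 31, 27 and 68. The peaks at 9465502 to 9466330 (32, 18 and 182) and at 13700444 to 13701102 (34, 22 and 169) had the largest rank numbers of the 12 within replicate 2. The last 2 of the 12 best X peaks lay at 12362846 to 12363351 (44, 32 and 96) and at 16681748 to 16682333 (51, 45 and 67).

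**Figure D1:**
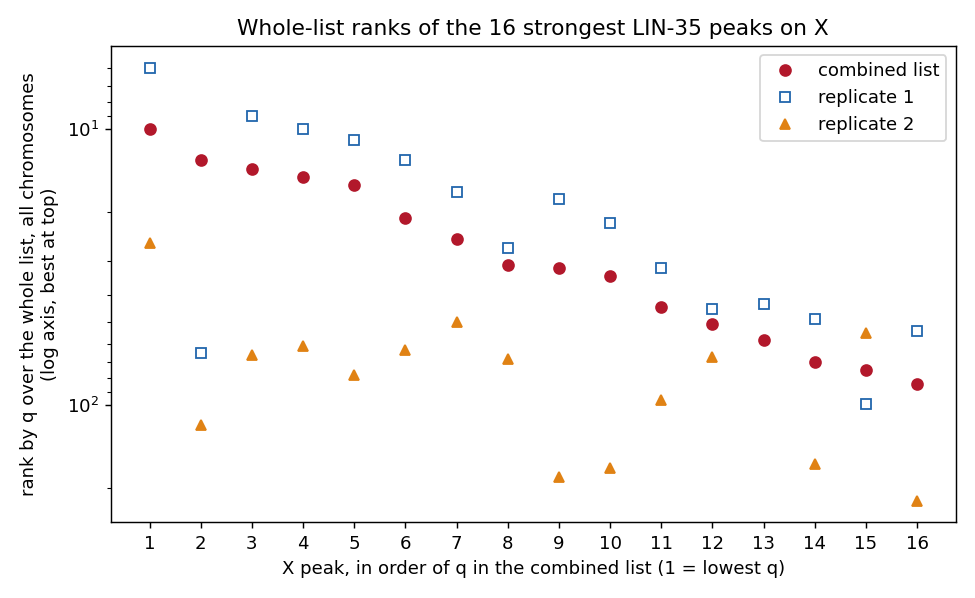
Rank by q over the whole list (log axis, best at the top) of the 16 X peaks with the lowest q, in the combined list, replicate 1 and replicate 2. Replicate 1 ranks ran from 6 to 99, and replicate 2 held 15 of the 16, at ranks from 26 to 222.

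The 16 X peaks with q below 1e-20 were spread over the whole chromosome. Each 10% of the length of X held at least 1 of them, from 7.64% to 96.1% of the way along, and neighbours among them were between 247 kb and 2.09 Mb apart. All 16 overlapped a replicate 1 peak and 15 overlapped a replicate 2 peak. The exception, at 16056020 to 16056749, had q = 3.46e-26 in the combined list and rank 43 in replicate 1. Such support was not particular to X. The 50 best combined peaks included 39 on autosomes, of which 39 were found in replicate 1 and 38 in replicate 2. The 16 X regions were 506 to 2475 bp wide and made up 12.4% of all X bases under peaks.

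The strongest X peaks were then placed among the autosomal peaks of the same list. Among the 50 best combined peaks, the 11 on X had a median rank of 17 in replicate 1, better than the 39 autosomal peaks, which had a median rank of 30. In replicate 2 the same 11 X peaks had a median rank of 68, worse than the 25.5 of the 38 autosomal peaks found there. Within X the order was nonetheless similar: over the 33 X peaks of replicate 2 that overlapped replicate 1, ranks in both lists had Spearman's rho = 0.78, and over 429 autosomal pairs rho was 0.51. These ranks and correlations are across peaks of shared libraries, were not tested and are given as descriptions.

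Support in the replicates was next counted, with an overlap of at least 1 bp. Of the 732 X peaks, 381 or 52.0% (95% interval 48.4 to 55.6) overlapped replicate 1, and 40 or 5.46% (4.04 to 7.36) overlapped replicate 2. Over all chromosomes the shares were 56.9% and 10.1%, and on the autosomes they were 57.7% (56.2 to 59.1) and 10.8% (9.95 to 11.7). X peaks were thus less often supported than pooled autosomal peaks by replicate 1 (adjusted p = 0.0133) and by replicate 2 (adjusted p = 1.53e-05, two-sided Fisher's exact test, adjusted over 19 comparisons of X with autosomes). Both replicates marked 33 X peaks or 4.51%, against 8.65% of all peaks and 9.31% of autosomal peaks (adjusted p = 2.51e-05, Fisher's exact test). Neither replicate marked 344 X peaks or 47.0%, against 41.7% of all peaks and 40.8% of autosomal peaks (adjusted p = 0.00597, Fisher's exact test). Without chromosome I the autosomal shares were 58.8% for replicate 1 and 39.5% for neither replicate. For these shares chromosome I thus lay on the same side of the pooled autosomes as X, and at least as far from them. Low support by replicate 1 was therefore not particular to X, and X was not compared with single autosomes in support. The differences for replicate 1 and for neither replicate did not pass with midpoints within 100 bp as the overlap rule (adjusted p = 0.254 and 0.119, Fisher's exact test) or for peaks of at least 100 bp (0.207 and 0.150), and none of the 4 passed among peaks with q below 0.001. The test treats peaks as independent and covers counting error within these libraries, not the spread between worm populations. How the combined list was made is not given in the sources used here, so an overlap with a replicate is not separate evidence for a peak.

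At like rank this shortfall was not detected. The combined list was divided by q, over all chromosomes, into 4 parts of about 1344 peaks. X had 96 peaks in the best 25%, 171 in the second, 212 in the third and 253 in the last. Because the combined q is not separate from the replicates, the comparison within these parts does not show why the shares over the whole list differed. In the best 25%, 92.7% (85.7 to 96.4) of X peaks and 94.3% (92.9 to 95.5) of autosomal peaks overlapped replicate 1. Replicate 2 overlapped 37.5% (28.5 to 47.5) of those X peaks and 37.2% (34.5 to 39.9) of the autosomal ones, a difference of 0.321 percentage points with a 95% interval from -9.11 to 10.7. With q below 0.001 in all lists this difference was 11.7 points, 52.6% of X peaks and 40.9% of autosomal peaks (adjusted p = 0.552, Fisher's exact test). In the second 25%, replicate 1 overlapped 74.3% of X peaks and 65.4% of autosomal peaks (adjusted p = 0.0568, Fisher's exact test). In the third the shares were 47.2% of X peaks and 43.0% of autosomal peaks, and in the last 25.7% and 22.7% (adjusted p = 0.553 and 0.555, Fisher's exact test). None of the 8 comparisons at like rank passed the threshold of 0.05. For replicate 1 the 95% intervals of the X minus autosome difference ran from -8.70 to 2.38 points in the best 25% and from 1.39 to 15.5 in the second. They ran from -3.07 to 11.4 in the third and from -2.59 to 9.23 in the last. For replicate 2 the widest interval after the best 25% was that of the second, from -2.48 to 2.48 points. The intervals are not adjusted for the number of comparisons.

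**Figure D2:**
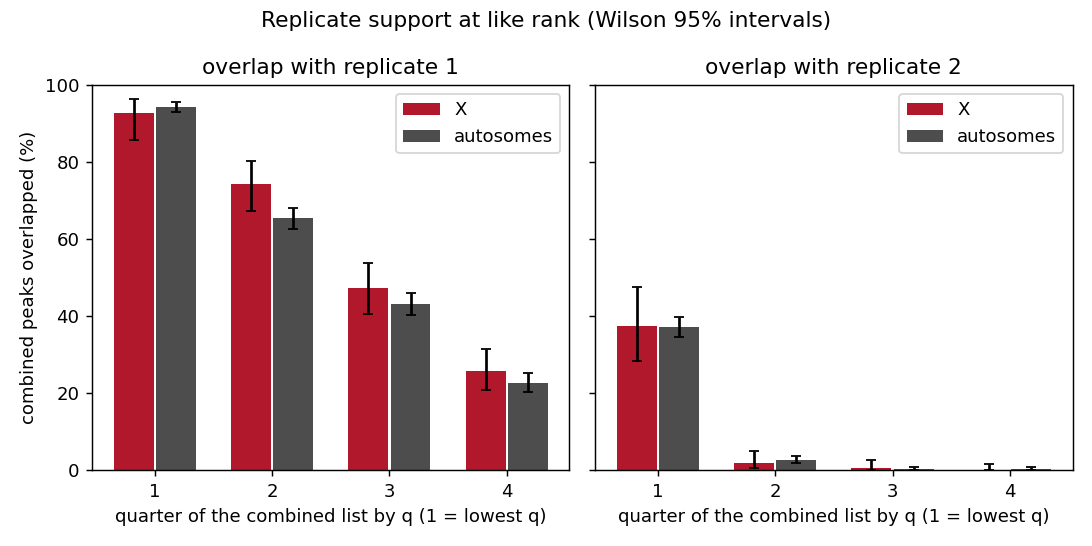
Share of combined peaks overlapped by replicate 1 (left panel) and replicate 2 (right panel), for X and autosomes within 4 equal parts of the combined list by q; bars are shares and whiskers are Wilson 95% intervals. X and autosomal shares fall together, in replicate 1 to 25.7% on X and 22.7% on autosomes in the last part.

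Width behaved in the same way. X peaks under 100 bp numbered 333 or 45.5% (41.9 to 49.1), against 35.9% of all peaks and 34.4% (33.1 to 35.8) of autosomal peaks (adjusted p = 9.32e-08, Fisher's exact test). In the best 25% of the list no peak was that narrow on X or on an autosome, and the median width was 368 bp on X and 363 bp on the autosomes. The medians were 171 bp on X and 179 bp on autosomes in the second part, 89 and 86 bp in the third, and 49 and 55 bp in the last. The share under 100 bp passed the threshold in none of the 4 parts; the widest separation was in the last, with 75.9% of X peaks and 69.1% of autosomal peaks (adjusted p = 0.0688, Fisher's exact test). Among peaks with q below 0.001 in the combined list, 3.08% of X peaks and 3.99% of autosomal peaks were narrow, so the overall excess of narrow X peaks was not seen there. In the replicate 2 list alone 0% of X peaks and 0.193% of autosomal peaks were narrow, and in the replicate 1 list alone 36.2% and 28.9% were (adjusted p = 0.00101, Fisher's exact test).

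The classes of support differed widely in strength and size, on X as on the autosomes. The 33 X peaks in both replicates had a median width of 533 bp (quartiles 387 and 817) and a median q of 6.50e-12, and the weakest of them had q = 0.000148. The 348 in replicate 1 alone had a median width of 145 bp and a median q of 0.00204. The 344 in neither had a median width of 70 bp and a median q of 0.00592. On the autosomes the order was the same, with medians of 454.5 bp and q = 4.91e-12 in both replicates. Autosomal peaks in replicate 1 alone had medians of 191 bp and q = 0.000661, and those in neither 86 bp and q = 0.00467. Only 7 X peaks were in replicate 2 alone; the best of them, at 15353820 to 15354245, ranked 695 in the combined list and 237 in replicate 2. The best X peaks in neither replicate lay at 10132678 to 10133008 (q = 3.17e-05), 9091306 to 9091646 (q = 5.04e-05) and 7264884 to 7265205 (q = 7.71e-05), which ranked 1163, 1247 and 1324 over all chromosomes. The first of them was number 83 among the X peaks in order of q.

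Ranking the X peaks among themselves gave the same picture, and no such ranking of autosomal peaks is given here. Replicate 2 supported 16 of the 20 best X peaks, 14 of those ranked 21 to 50 on X, 6 of those ranked 51 to 100 and 3 of those ranked 101 to 183. Of the remaining 549 it supported 1. Replicate 1 supported 20, 29, 44 and 66 peaks in the same classes and 222 of the remaining 549, or 40.4% (36.4 to 44.6). The best 25% of X peaks, 183 peaks with q up to 0.000969, had a median width of 276 bp, against 75 bp for the other 75%, whose lowest q was 0.000986.

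The replicate peaks that overlapped X peaks were set beside them in position and width. Because they were picked by overlap, short distances between midpoints follow in part from that choice and are a description. Of the 381 X peaks overlapped by replicate 1, 378 matched a single replicate 1 peak, and the midpoints were a median of 13.8 bp apart. At the median the replicate 1 peak was as wide as the combined one, and the quartiles of their width ratio were 0.823 and 1.37. In replicate 2 the 39 single matches were a median of 35 bp apart at their midpoints and narrower, with a width ratio of 0.697 at the median.

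In the other direction, 33 of the 41 X peaks of replicate 2, or 80.5% (66.0 to 89.8), overlapped replicate 1, against 83.0% (79.5 to 86.0) of its 517 autosomal peaks, with an interval of the difference from -17.3 to 7.42 points (adjusted p = 0.724, Fisher's exact test). Of the 505 X peaks of replicate 1, 33 or 6.53% overlapped replicate 2, against 13.0% of its autosomal peaks (adjusted p = 2.77e-05, Fisher's exact test). The combined list held all 41 X peaks of replicate 2 and 384 of the 505 of replicate 1, or 76.0% (72.1 to 79.6), against 82.0% of the autosomal replicate 1 peaks (adjusted p = 0.00231, Fisher's exact test). These comparisons were chosen after the data were seen and adjusted over 13 such comparisons. The 121 X peaks of replicate 1 outside the combined list had a median width of 46 bp, against 156 bp for those inside. The best of them were at 8422673 to 8423065 (q = 0.000288), 17362945 to 17363144 (q = 0.000569) and 13176983 to 13177032 (q = 0.00147), and the nearest combined peaks were 17998, 29350 and 2453 bp away.

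X peaks were spaced more widely than the pooled autosomal peaks, at short distances in particular. Successive X peaks were separated by a median of 14.4 kb (quartiles 5.33 and 34.4 kb), against 7.21 kb (1.86 and 23.4 kb) on the autosomes. Chromosome I was nearest to X, with a median of 11.1 kb (2.54 and 34.4 kb), and chromosomes II to V had medians from 5.47 to 8.32 kb. In the replicate 1 list the median was wider on chromosome I, at 27.3 kb, than on X, at 21.7 kb. A neighbour within 1 kb was present for 106 X peaks or 14.5% (12.1 to 17.2), against 26.1% of all peaks and 27.9% (26.6 to 29.2) of autosomal peaks, a difference of -13.4 points with an interval from -16.1 to -10.4 (adjusted p = 1.30e-14, Fisher's exact test). A gap of that length counts both of its peaks, so the peaks are not independent. Intervals are therefore too narrow and p-values too small, here and in the comparisons of close neighbours below. Counted as gaps, 59 of 731 on X (8.07%) and 751 of 4637 on the autosomes (16.2%) were within 1 kb, which was not tested. Within 5 kb the shares were 38.1% of X peaks and 63.5% of autosomal peaks, and within 50 kb they were 98.1% and 98.7%.

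Chromosomes differed in peaks per length and in peak width, and the part of either in the share with a close neighbour was not tested; each autosome was also compared singly. Chromosome I had 38.6 peaks per Mb as analysed here and a median peak width of 240 bp, against 139 to 159 bp on chromosomes II to V, and 22.4% (19.2 to 25.9) of its peaks had a neighbour within 1 kb. By Fisher's exact test the X share of 14.5% was below that of chromosome I (adjusted p = 0.000463). It was also below that of each other autosome, which ranged from 26.5% on V to 33.4% on III (highest adjusted p = 3.13e-09, Fisher's exact test). These comparisons were also among the 13 added ones. At like rank the X share was lower in the best 25% of the list, with 16.7% of X peaks and 37.3% of autosomal peaks (adjusted p = 6.33e-05), in the third (13.2% and 23.7%, adjusted p = 0.000818) and in the last (10.3% and 21.6%, adjusted p = 4.46e-05, all by Fisher's exact test). In the second, with 21.1% of X peaks and 28.0% of autosomal peaks, the difference did not pass the threshold (adjusted p = 0.0770, Fisher's exact test).

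**Figure D3:**
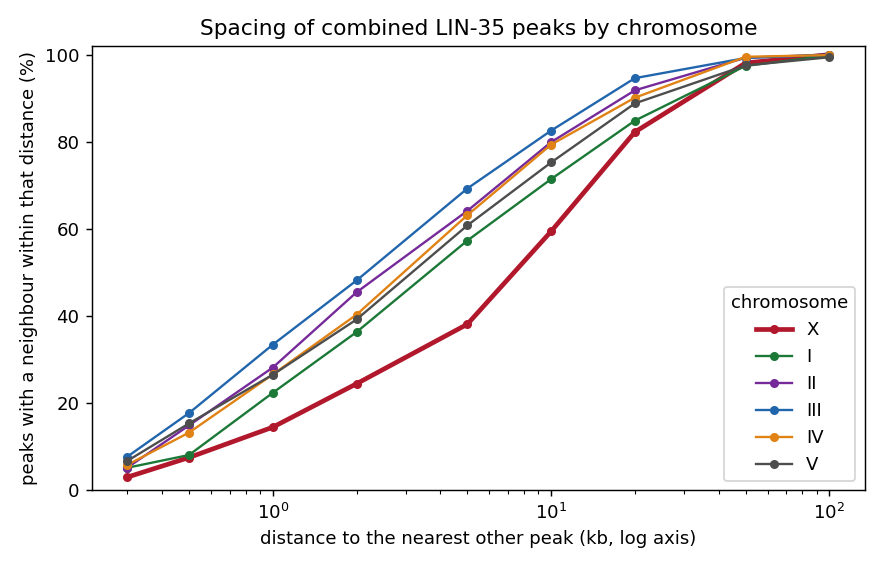
Cumulative share of combined peaks that have another peak within a given distance (log axis, kb), by chromosome. The X curve lies below the 5 autosomes from 0.3 to 20 kb, with 14.5% of X peaks against 22.4% to 33.4% on the autosomes at 1 kb.

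Most close neighbours on X came in pairs. Peaks linked by gaps of up to 1 kb formed 39 pairs and 8 groups of 3 or more on X, and the other 626 X peaks stood alone. The groups of 3 or more held 28 X peaks or 3.83%, against shares from 5.85% on chromosome I to 13.6% on III. The largest, at 11602640 to 11606384, held 5 peaks in 3745 bp, all of which overlapped replicate 1, and its best member was the region at 11605568 to 11606384 with q = 6.46e-24 and rank 55 in replicate 2. Of the 59 adjacent X pairs within 1 kb, 26 joined a peak of the best 25% of X to a weaker one, 7 joined 2 of the best and 26 joined 2 weaker peaks. Strong X peaks had such a neighbour in 18.6% of cases (13.6 to 24.8) and weak ones in 13.1% (10.5 to 16.2), which did not pass the threshold (adjusted p = 0.178 over 2 comparisons, Fisher's exact test). In the replicate 1 list alone the strong X peaks exceeded the weak ones by 11.4 points (adjusted p = 0.000837, Fisher's exact test).

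Over 10 bins along the chromosome, no departure of the whole set of X peaks from equal shares was detected. X was divided into 10 bins of equal length. The share of X peaks per bin ranged from 8.74% in the fifth and the last to 11.7% in the seventh, and none differed from 10% past the threshold (lowest adjusted p = 0.589, exact binomial test over 10 bins). The right side of the midpoint held 380 X peaks and the left side 352 (p = 0.318, exact binomial test). The central 50% of X held 49.3% (45.7 to 52.9) of its peaks, against 56.6% (55.2 to 58.1) for the central 50% of the pooled autosomes (adjusted p = 0.000870, Fisher's exact test). Without chromosome I the autosomal share was 57.4%, so chromosome I, like X, lay below the pooled autosomes. X was not compared with single autosomes in this share. In the replicate 2 list alone, with 41 X peaks, the difference between X and all autosomes was -10.4 points and did not pass (adjusted p = 0.373, Fisher's exact test). Among combined peaks with q below 0.001 it was -9.26 points (adjusted p = 0.147, Fisher's exact test).

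Counts in windows of 500 kb varied less on X, relative to their mean, than on any autosome. The 35 full windows of X held 20.8 ± 4.56 peaks (mean and SD over windows), from 11 to 31. The variance of these counts was 1.003 times their mean, and a Poisson count has a ratio of 1. Chromosome I, with a similar mean of 19.4 peaks per window, had a ratio of 1.86, and chromosomes II to V had ratios from 2.78 to 5.03. For the combined peaks with q below 0.001 the ratio was 1.02 on X and 1.67 to 4.09 on the autosomes, and in replicate 1 it was 1.24 on X and 1.56 to 4.07 on the autosomes. The ratio grows with the mean where density varies along a chromosome, and it was not tested.

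**Figure D4:**
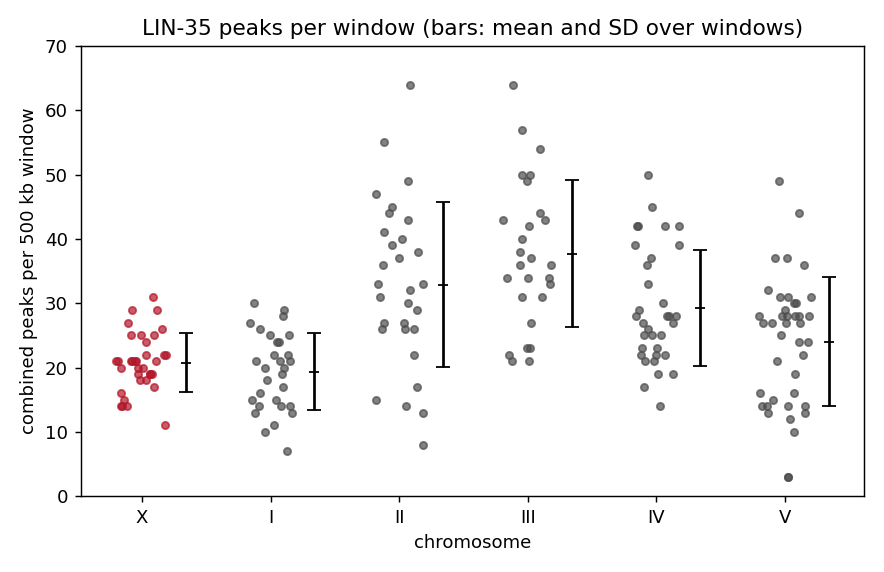
Number of combined peaks in each full 500 kb window, by chromosome; points are windows, and bars show the mean and SD over windows. X windows held 11 to 31 peaks, while windows of chromosome II held 8 to 64.

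The windows richest in X peaks were at 14500001 to 15000000 with 31 peaks, and at 1000001 to 1500000 and 11500001 to 12000000 with 29 each. Of the 31 in the first, 15 overlapped neither replicate, a share close to the 47.0% of all X peaks. The window at 11500001 to 12000000 also held the most strong peaks of any X window, 10 of the 183. The poorest full window, at 7500001 to 8000000, held 11. The longest stretches of X without a combined peak were at 16961656 to 17151223 (189.6 kb), 1674602 to 1850519 (175.9 kb) and 13781673 to 13945687 (164 kb). None held a replicate 2 peak. Replicate 1 had 4, 1 and 3 peaks in them, and in the first stretch these had q between 0.00215 and 0.00967.

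The positions of strong and weak X peaks were compared over the central 50%, the sides of the midpoint and the 10 bins. The best 25% of X peaks lay in the central 50% of X in 47.5% (40.4 to 54.8) of cases and the other 75% in 49.9% (45.7 to 54.1), with an interval of the difference from -10.6 to 5.96 points (adjusted p = 0.609, Fisher's exact test). With strong peaks taken as the best 10% of X the difference was -10.7 points (adjusted p = 0.172, Fisher's exact test). Right of the midpoint lay 57.9% (50.7 to 64.8) of the best 25% (p = 0.0382, exact binomial test against equal sides) and 49.9% (45.7 to 54.1) of the other 75% (274 of 549); the difference between the shares was not tested. The third of the 10 bins, from 3.52 to 5.28 Mb, held 6 of the 183 strong peaks, or 3.28% (1.51 to 6.97), and 59 of the 549 weak ones, or 10.7% (8.42 to 13.6), a difference that was not tested. Among X peaks with q below 0.001 this stretch held 8 of 195, or 4.10% (2.09 to 7.89), which was below 10% (adjusted p = 0.0386, exact binomial test over 10 bins). In the same 195 peaks, 57.4% lay right of the midpoint (p = 0.0447, exact binomial test). These 195 peaks include all 183 strong ones, so neither result is separate from those for the best 25%. The region at 4208576 to 4209638, eighth among all X peaks, lay within the stretch where strong peaks were few.

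**Figure D5:**
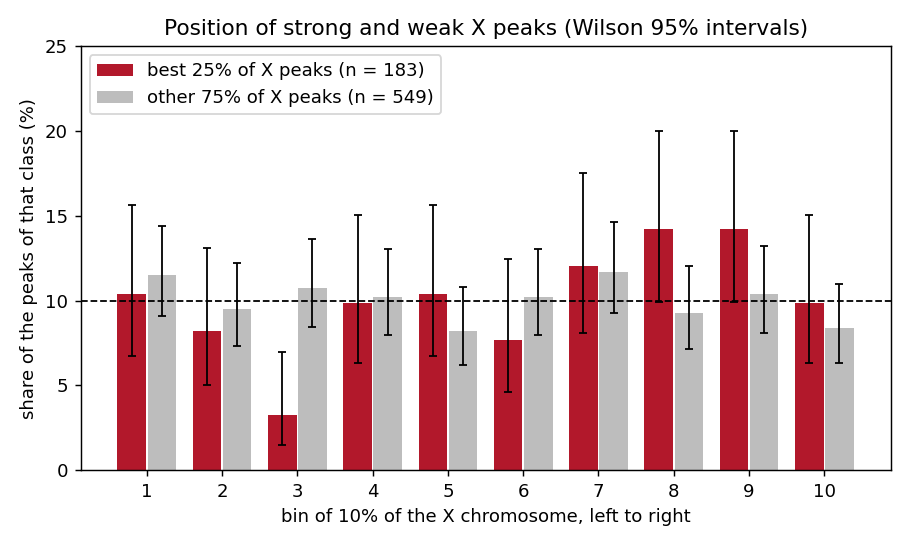
Share of the best 25% of X peaks by q (n = 183) and of the other 75% (n = 549) in 10 bins of equal length along X, from left to right, with Wilson 95% intervals; the dashed line marks 10%. The strong peaks have 3.28% in the third bin, against 10.7% of the weak peaks.

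Whether X peaks lie at gene starts, in exons or in introns was not analysed here, because the gene table at hand describes another genome build than the peak coordinates. No sequence of X peaks was used for the same reason.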

How the data were processed

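Peak lists were analysed as deposited by the authors: 1 for each of the 2 LIN-35 ChIP samples and 1 combined list. Per the file headers, positions are on WormBase WS220, peaks were called with PeakSeq and a liftover step was applied; no source used here gives the aligner, the control or how the lists were combined. The deposited q-values, all below 0.01, served to order and filter the peaks of a single list. Peaks have no height or fold, and read depth is unknown.

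Members were the combined peaks on X. They, the tests and the named regions were chosen with earlier results of these data known. Named were the 12 X peaks with the lowest q, the 3 widest, the 3 best in neither replicate, the 3 best of each replicate outside the combined list, the 3 longest empty stretches and the 3 richest 500 kb windows; other regions were named after their values were seen. Replicate 2 had no X peak outside the combined list.

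The length of a chromosome was its highest peak end in any list. Distances are the bases between 2 peaks. Shares carry Wilson 95% intervals, and differences of shares Newcombe intervals from them; both cover counting error only. Shares were compared with two-sided Fisher's exact tests and positions with two-sided exact binomial tests, each with Benjamini-Hochberg adjustment over its family and a threshold of 0.05. The tests of the sides of the midpoint were not adjusted. Python 3.11.15, scipy 1.17.1 and pandas 2.3.3 were used. Overlap counts on X were checked against bedtools 2.31.1 and were equal, and the procedures were tested on simulated data. Alternatives were other overlap rules (50% of both peaks, midpoints within 100 bp), q below 0.001, a minimum width, other distances, each replicate list alone and other autosome sets.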

Additional observations from a re-analysis of the deposited data

How the results depend on the processing

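The lower share of X peaks with a close neighbour kept its direction in every setting tried, and lost its call only in the second 25% of the list by q (-6.93 points, added after seeing the data); the lists of single replicates gave -15.3 to -8.85 points. Shares of support differed less: with midpoints within 100 bp the X minus autosome difference was -3.14 points for replicate 1 and 3.95 for neither replicate, and for peaks of at least 100 bp it was -4.68 and 5.12, none of them past the threshold. With q below 0.001 in all lists the differences were -7.69 points for replicate 1, -0.593 for replicate 2, 0.158 for both and 8.44 for neither, none past the threshold, that for narrow peaks was -0.915, and that for the central 50% was -9.26; fewer peaks were tested there (195 on X). Single replicate lists gave -10.4 to -9.44 points for the central 50% and -0.193 to 7.29 for narrow peaks. Without chromosome I the calls on support, width, close neighbours and the central 50% were kept. At like rank, uncalled differences changed sign: replicate 1 in the best 25% moved to 3.13 points with midpoints and 3.16 with q below 0.001, which also gave -0.952 and -1.15 for it in the third and the last 25%, and 1.55 and -0.816 for replicate 2 in the second and the third. For replicate 2 in the best 25% the difference of 0.321 points was 11.7 with q below 0.001 and 4.41 with midpoints, both uncalled.

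On X, q below 0.001 brought 1 of 10 bins past the threshold, against 0 in the whole list, and 57.4% of peaks to the right side; the single lists gave 0 bins and 51.5% to 61.0%. With strong peaks taken as the best 10% or 50% of X, their median width was 400 or 180 bp and 43.8% or 9.02% were in both replicates; the single lists gave 284 to 518 bp and 26.2% to 100%. The strong minus weak difference in close neighbours was 6.56 points with 50%, now past the threshold, and 0 to 11.4 points in the single lists; that in the central 50% was -10.7 points with 10%, -4.10 with 50% and 0.649 to 14.8 points in the single lists, none past the threshold. The cause of these changes was not tested. No paired analysis was possible because the inputs, which carry the same replicate numbers as the ChIP samples, were not analysed here. Depth is unknown, so absence from the replicate 2 list does not show that LIN-35 was missing from a region.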
